A study of Drosophila melanogaster with 40 samples.

Results

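The vacuolar ATPase genes of Drosophila S2 cells were followed over a pair of RNA-Seq time courses. Members were all loci whose RefSeq accessions mapped to a fly gene symbol starting with Vha. This gave 33 loci, each holding 1 gene, of 15864 loci in the 28°C course and 15863 in the 25°C course. S2 is an established line derived from late embryos and has a plasmatocyte (macrophage-like blood cell) character. At 28°C, cells were grown at that temperature, received 2 days of temperature cycles and a further day at 28°C before sampling, and their RNA was depleted of rRNA. At 25°C, cells had at least a week of temperature cycles and a medium change before transfer to constant 25°C, and polyA RNA was selected. Each course comprised 20 libraries, taken every 3 h between CT24 and CT81 (CT stands for circadian time, in h), without a replicate at any time, so that every error given here is the scatter over the times of a course. All 40 libraries came from this line, with no genetic change named.

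The vacuolar ATPase is a rotary proton pump that acidifies lysosomes, endosomes and secretory vesicles. ATP hydrolysis by the peripheral V1 sector (subunits A to H) turns a central stalk, which rotates a ring of proteolipids in the membrane sector V0 (subunits a, c, c'', d and e) past subunit a and carries protons across the membrane. The fly genome holds several copies of most subunit genes, some broadly expressed and others restricted to single tissues such as the testis. In phagocytic blood cells the pump is best known for the acidification of phagosomes and lysosomes.

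Values are FPKM, reads scaled to transcript length and library size, so that levels of different genes can be compared per length. At 28°C the 10 highest loci held between 26.5% and 52.9% of the summed FPKM of a library, and between 4158 and 7185 loci were listed above 0. At 25°C these loci held between 11.2% and 14.0%, and between 10148 and 11478 loci were above 0. Relative depth at 25°C, estimated from low loci, was lowest at CT39 (0.573 of the median library) and highest at CT48 (1.54). The authors describe the 28°C course as low in coverage. They had subsampled its alignments to far fewer per library than the mapped reads of any 25°C library. Of the 28°C libraries, the share in 10 loci was largest at CT48 (52.9%), CT24 (47.4%), CT78 (42.8%) and CT63 (40.7%). The fewest loci above 0 were at CT60 (4158) and CT27 (4177). Of 7 plasmatocyte markers, 6 reached a mean of 0.9 FPKM at 28°C and 4 at 25°C. Their summed level ranged from 59.7 to 279 FPKM at 28°C and from 216 to 272 FPKM at 25°C. Hml had means of 10.0 FPKM at 28°C and 0.0214 FPKM at 25°C, and NimC1 was below 0.9 FPKM in both courses. Of 6 markers of other cell types, elav alone reached 0.9 FPKM in either course, with means of 6.61 FPKM at 28°C and 6.65 FPKM at 25°C.

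S2 cells held RNA for every subunit represented among the Vha loci, from a limited number of gene copies. With a mean of at least 0.9 FPKM taken as expressed, 18 of the 33 members were expressed at 28°C and the same 18 at 25°C. They comprised 10 genes of V1, 7 of V0 and the accessory glycoprotein gene VhaAC45, and each of the 14 subunits, VhaAC45 counted as one of them, had at least 1 expressed member. A total of 15 members were silent in both courses. These were Vha68-3 (subunit A), Vha36-3 (D), Vha14-2 (F), Vha100-3, Vha100-4 and Vha100-5 (a), Vha16-2, Vha16-3, Vha16-4 and Vha16-5 (c), VhaPPA1-2 (c''), VhaAC39-2 (d), VhaM9.7-a and VhaM9.7-d (e) and VhaAC45RP. At 28°C, 14 of them were listed at 0 in every library, and the remaining one, Vha36-3, had a single value above 0, of 1.92 FPKM at CT39. At the low coverage of this course, a value of 0 does not show absence. At 25°C, 4 of the 15 (Vha100-3, Vha16-2, Vha16-3 and VhaM9.7-d) were listed at 0 in every library, and the highest mean was 0.216 FPKM, again of Vha36-3. Just inside the threshold, Vha36-2 had a mean of 1.06 FPKM at 28°C and of 1.12 FPKM at 25°C. The 28°C mean rested on few libraries, since Vha36-2 was listed at 0 in 14 of 20, with a median of 0 FPKM and a highest value of 8.85 FPKM at CT69. Without CT69 its mean was 0.647 FPKM, so that without CT69, and likewise without CT54, 17 members rather than 18 counted as expressed at 28°C (a check added after the values were seen). At 25°C the count was 18 whichever library was left out.

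The 3 copies of the A subunit gene illustrate this division, since they lie near each other on chromosome 2L. In dm3, the build of the deposited loci, Vha68-2 spans chr2L:12974321-12978607, Vha68-3 chr2L:12978785-12981293 and Vha68-1 chr2L:13000769-13004107. Vha68-2 averaged 56.1 FPKM at 28°C and 132 FPKM at 25°C, while Vha68-1 averaged 4.26 FPKM at 28°C and 7.27 FPKM at 25°C. The 28°C mean of Vha68-1 was carried by CT27, with 38.1 FPKM. Without it the mean was 2.48 FPKM, and over all 20 libraries the median was 1.09 FPKM, with 7 listed at 0. The copy between them, Vha68-3, was listed at 0 in all 28°C libraries and averaged 0.0425 FPKM at 25°C. Of the 33 members, 8 lie on chromosome 2R, Vha36-3 and VhaAC39-1 on X, and the others on 2L, 3L and 3R.

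Among the expressed members, the c proteolipid gene Vha16-1, which encodes the repeated subunit of the rotor ring, had the highest level in both courses. Vha16-1 had 223 (lowest), 290 (median) and 445 FPKM (highest) in the 28°C libraries, against 597, 734 and 835 FPKM in the 25°C libraries. Vha13, which encodes peripheral stalk subunit G, followed with 6.43, 133 and 301 FPKM at 28°C, against 279, 290 and 321 FPKM at 25°C. VhaPPA1-1, the gene of the related proteolipid c'', had 49.8, 100 and 238 FPKM at 28°C, against 203, 251 and 296 FPKM at 25°C. At 28°C the ranges of all neighbours in the order of mean levels overlapped, those of Vha16-1 and Vha13 included. At 25°C neighbours overlapped except at 4 places, namely between Vha16-1 and Vha13, between Vha68-2 and VhaAC39-1, between VhaM9.7-c and Vha68-1 and between Vha68-1 and Vha36-2.

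**Figure D1:**
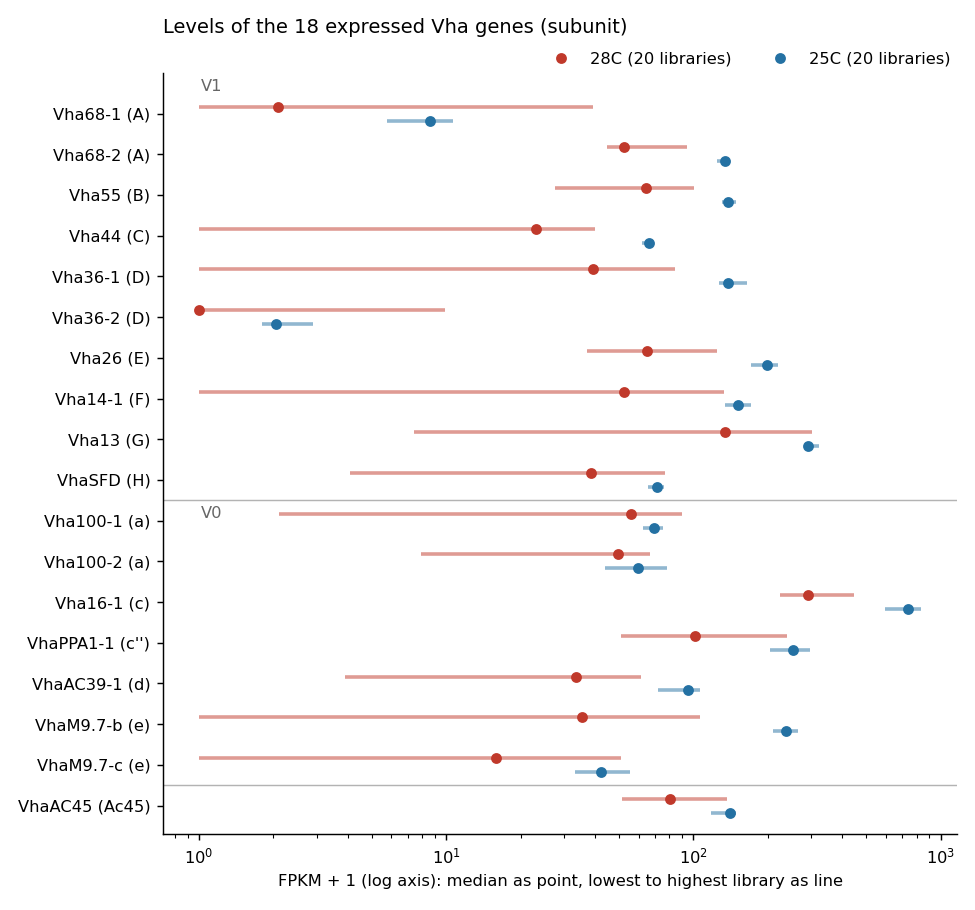
Levels of the 18 expressed Vha genes, as FPKM + 1 on a log axis, with the subunit in parentheses and 28°C above 25°C for each gene. Points are medians and lines run from the lowest to the highest of 20 libraries; the 28°C lines are wide (7 genes reach 0 FPKM), and Vha16-1 has the highest median in both courses.

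The other V1 genes had lower levels than Vha13 in both courses, the second copies of A and D lowest of all. Vha55, which encodes the nucleotide-binding but non-catalytic subunit B, had 26.6 (lowest), 63.2 (median) and 99.2 FPKM (highest) at 28°C, against 129, 137 and 147 FPKM at 25°C. Vha68-2, the main gene of the catalytic subunit A, had 43.8, 51.3 and 92.8 FPKM at 28°C, against 123, 133 and 139 FPKM at 25°C. The ranges of the A and B genes, whose subunits alternate in the catalytic head, overlapped in both courses. Means of Vha26 (peripheral stalk, E) were 70.5 FPKM at 28°C and 197 FPKM at 25°C, and those of Vha14-1 (central stalk, F) 54.4 and 152 FPKM at 28°C and 25°C. Vha36-1 (central stalk, D) averaged 35.5 FPKM at 28°C and 139 FPKM at 25°C. Subunits C and H, which connect the sectors and control their coupling, were encoded by the lowest V1 genes without an expressed second copy. Vha44 (C) averaged 20.2 FPKM at 28°C and 64.9 FPKM at 25°C, and VhaSFD (H) 41.5 FPKM at 28°C and 70.5 FPKM at 25°C.

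Of the V0 genes, subunit a was the one expressed from a pair of copies at similar levels. Vha100-1 averaged 53.2 ± 20.0 FPKM at 28°C and 68.9 ± 3.42 FPKM at 25°C, and Vha100-2 averaged 45.5 ± 13.8 FPKM at 28°C and 58.5 ± 11.2 FPKM at 25°C (SD over 20 libraries each). VhaAC39-1, which encodes subunit d between ring and stalk, averaged 29.8 FPKM at 28°C and 92.6 FPKM at 25°C. The small membrane subunit e came from VhaM9.7-b, with 38.1 FPKM at 28°C and 237 FPKM at 25°C, and VhaM9.7-c, with 16.5 FPKM at 28°C and 42.5 FPKM at 25°C. The locus of VhaM9.7-c is far longer than that of VhaM9.7-b, spanning chr3L:4173883-4193788 against chr3L:21532961-21534315 in dm3. VhaAC45, an accessory glycoprotein that associates with V0, averaged 78.7 FPKM at 28°C and 136 FPKM at 25°C.

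As a description, the median variability of the expressed members over time was below that of all loci of the same course, with exceptions. The median coefficient of variation over the 20 times was 47.1% for the 18 members at 28°C, against 84.2% for all 7363 expressed loci. At 25°C it was 7.02% for the members, against 11.2% for all 7531 expressed loci. Members above the median of all loci were Vha36-2 and Vha68-1 in both courses, VhaM9.7-c at 28°C (85.4%) and Vha100-2, VhaM9.7-c and VhaAC39-1 at 25°C (11.3% to 19.1%). Because members are abundant, loci with means of at least 20 FPKM were set beside them. In this range the medians were 40.2% for 15 members and 51.2% for all loci at 28°C, and 6.63% for 16 members and 9.95% for all loci at 25°C. At 28°C, 7 expressed members were listed at 0 in at least 1 library, whereas none was at 25°C. Coverage was far lower at 28°C, and its part in these values of 0 and in the larger variation was not tested. Several extremes of the 28°C course fell on 1 library. At CT48, Vha16-1, Vha13, Vha14-1 and VhaAC45 had their highest value, and VhaSFD (3.08 FPKM) and Vha100-1 (1.11 FPKM) had their lowest.

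To follow the members over the 28°C course, a straight line was fitted to log2(FPKM + 1) with limma, and p-values were adjusted by the Benjamini-Hochberg method over all expressed loci. The fit treats the times of a course as independent, which neighbouring times may not be. None of the 18 members passed an adjusted p of 0.05, and 1.4% of all 7363 loci did (1.28% rising and 0.122% falling). At an unadjusted p under 0.05 there were 3 members, all with a positive slope. Vha13, a peripheral stalk gene, ranged from 6.43 FPKM at CT24 to 301 FPKM at CT48, with 131 to 260 FPKM in the last window of 5 libraries (CT69 to CT81), against 6.43 to 136 FPKM in the first window (CT24 to CT36). Its slope was 0.81 ± 0.27 log2 units per 24 h (SE), with an unadjusted p of 0.00625 and an adjusted p of 0.174. With 1 library left out, the slope of Vha13 ranged from 0.40 (without CT24) to 0.95 (without CT27). Vha44 was listed at 0 at CT24 and CT27, had a median of 22.0 FPKM and reached 38.9 FPKM at CT63. It had a slope of 1.12 ± 0.40, with an adjusted p of 0.206, and without CT24 the slope was 0.76. Without CT78 the slope of Vha44 was 1.43, with an adjusted p of 0.0702. For both genes the last and first windows overlapped, and the lowest values lay in the earliest libraries.

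VhaAC45 was the member whose last window at 28°C lay wholly above its first. It had 82.3 to 111 FPKM in the last window, against 50.4 to 80.4 FPKM in the first. Such a separation was found in 1 of 18 members and in 2.61% of all loci. Its slope was 0.24 ± 0.11, with an adjusted p of 0.382. The median slope of the 18 members, 0.14, was close to that of all loci, 0.12, and 11 of the 18 were above 0. In steps between consecutive windows (CT24 to CT36, CT39 to CT51, CT54 to CT66 and CT69 to CT81), 0 of 18 members passed in any step, against 0.0951% of all loci. Slopes at 28°C had standard errors between 0.091 (Vha16-1) and 0.53 (VhaM9.7-c), so that changes of the size seen at 25°C would mostly not have been detectable. Without CT24, CT27, CT48 and CT60, a choice made after the values were seen, the count was also 0.

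Over the 25°C course, 11 of the 18 members rose, 0 fell and 7 did not pass by the same limma test. Over all 7531 loci, 67.9% passed, 32.4% rising and 35.5% falling, so that a change was common in this course and its direction was mixed. Of the V0 genes 6 of 7 rose, of the V1 genes 4 of 10, and the accessory gene VhaAC45 rose as well; the difference between the sectors was not tested. The median slope was 0.18 log2 units per 24 h for the V0 genes and 0.048 for the V1 genes, against -0.0070 for all loci. Slopes were above 0 for 17 of the 18 members. The last window lay wholly above the first for 10 members and wholly below it for none, against 28.1% and 32.2% of all loci.

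**Figure D2:**
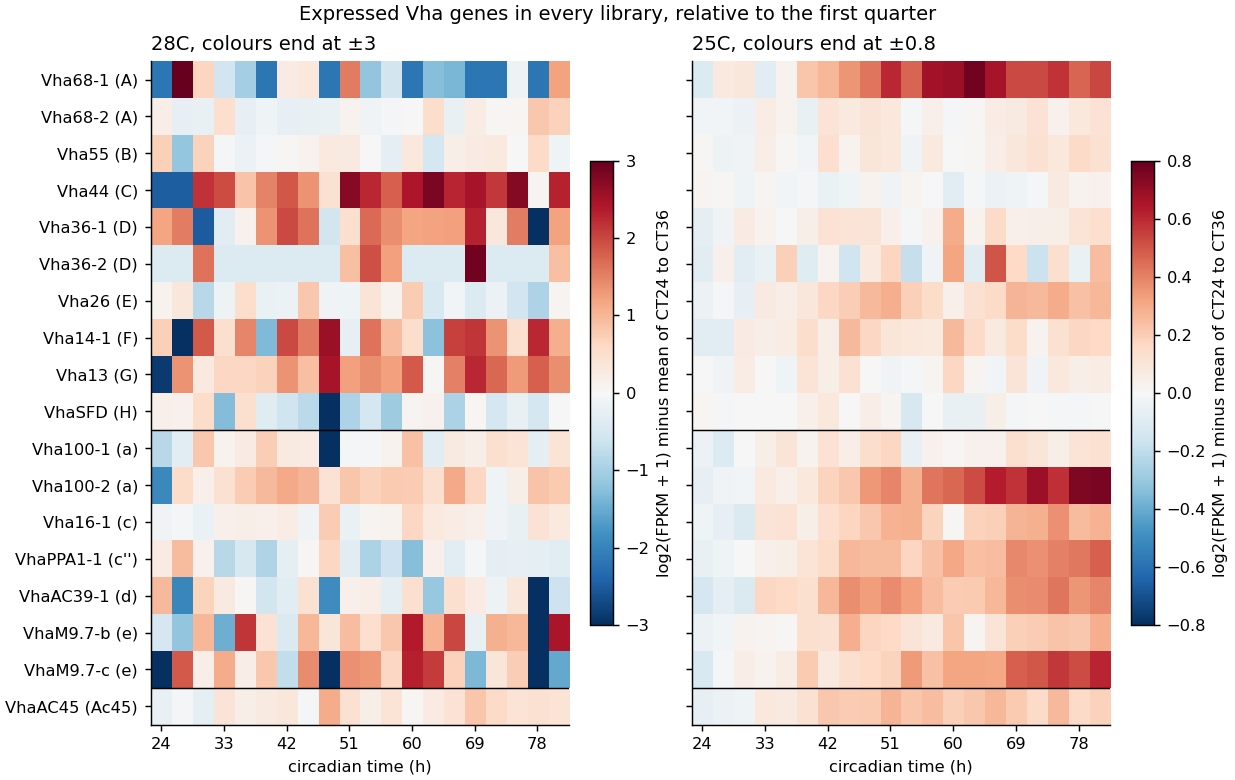
Each expressed Vha gene in every library, as log2(FPKM + 1) minus its mean over CT24 to CT36, with 28°C on the left (colours end at ±3) and 25°C on the right (colours end at ±0.8). At 25°C the 11 rising genes turn darker red towards CT81, most of all Vha100-2; at 28°C single libraries such as CT48 and CT78 dominate.

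Vha100-2, which encodes a copy of the a subunit that forms the proton path with the ring, had the steepest slope of the members at 25°C. It had 42.9 FPKM at CT24 (lowest), a median of 58.5 FPKM and 77.1 FPKM at CT81 (highest). The last window held 67.6 to 77.1 FPKM, against 42.9 to 47.7 FPKM in the first, without overlap. Its slope was 0.36 ± 0.017 (adjusted p = 1.26e-13), and 92.6% of all loci had a lower one. In every one of the 3 steps between windows it rose, by 0.24, 0.22 and 0.21 log2 units. VhaM9.7-c (subunit e) behaved alike, with 32.3 FPKM at CT24 (lowest), a median of 41.3 FPKM and 54.3 FPKM at CT81 (highest). Its last window held 49.6 to 54.3 FPKM, against 32.3 to 36.9 FPKM in the first, and its slope was 0.27 ± 0.019 (adjusted p = 3.42e-11). Both genes thus increased through the whole course rather than in 1 interval.

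The genes of the ring and of the subunit beneath it rose as well. VhaPPA1-1 (c'') had 203 FPKM at CT24, a median of 251 FPKM and 296 FPKM at CT81, with 273 to 296 FPKM in the last window, against 203 to 219 FPKM in the first. The slope of VhaPPA1-1 was 0.20 ± 0.017 (adjusted p = 9.93e-10). VhaAC39-1 (d), with a lowest value of 71.2 FPKM at CT24, a median of 94.1 FPKM and a highest of 105 FPKM at CT75, had a slope of 0.18 ± 0.032 (adjusted p = 3.58e-05). Most of this increase lay early, since VhaAC39-1 rose by 0.30 from the first to the second window, and neither later step passed (adjusted p of 0.623 and 0.0650). Vha16-1 (c) had 769 to 835 FPKM in the last window, against 597 to 700 FPKM in the first, and a slope of 0.14 ± 0.026 (adjusted p = 6.65e-05). A single low library interrupted the profile of Vha16-1 at CT60, with 650 FPKM. VhaM9.7-b (e) had 247 to 264 FPKM in the last window, against 210 to 221 FPKM in the first, with a slope of 0.096 ± 0.023 (adjusted p = 0.000902). Vha100-1 was the V0 gene that did not pass (slope 0.043 ± 0.021, adjusted p = 0.0751).

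Of the V1 genes that rose, Vha68-1, the minor copy of the catalytic subunit, had the largest slope. It had 4.77 FPKM at CT24 (lowest), a median of 7.59 FPKM and 9.61 FPKM at CT63 (highest). The last window held 7.59 to 8.27 FPKM, against 4.77 to 5.62 FPKM in the first, and the slope was 0.30 ± 0.047 (adjusted p = 1.06e-05). Its profile was not a straight line. Vha68-1 rose by 0.37 and by 0.28 in the first and the second step, and the third step of -0.12 did not pass (adjusted p = 0.127). Vha26 (E) had 208 to 218 FPKM in the last window, against 169 to 186 FPKM in the first, with a slope of 0.12 ± 0.024 (adjusted p = 0.000193). Vha55 (B) and Vha14-1 (F) rose by less, with slopes of 0.050 ± 0.017 (adjusted p = 0.0122) and 0.062 ± 0.025 (adjusted p = 0.0311). The call of Vha14-1 rested on the earliest libraries, since its adjusted p was 0.117 without CT24 and 0.105 without CT27. Vha14-1 rose by 0.14 in the first step, and the later steps of -0.012 and -0.0057 did not pass (adjusted p of 0.882 and 0.936). VhaAC45 had a slope of 0.098 ± 0.024 (adjusted p = 0.00106). It had 136 to 146 FPKM in the last window, against 117 to 129 FPKM in the first. The increase of VhaAC45 lay in the first step, of 0.20 log2 units. Its later steps of 0.023 and -0.036 did not pass (adjusted p of 0.679 and 0.434).

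Of the V1 genes, 6 of 10 did not pass the trend test at 25°C. Vha68-2, the main A subunit gene, lay closest to the threshold, with 131 to 139 FPKM in the last window, against 124 to 134 FPKM in the first, a slope of 0.038 ± 0.017 and an adjusted p of 0.0536. It passed in 8 of 20 fits that each left out 1 library. Vha36-1 (D) had a slope of 0.046 ± 0.023 (adjusted p = 0.0835). The slopes of Vha44 (C), 0.0069 ± 0.015, and Vha13 (G), 0.016 ± 0.020, were near 0 in a course where the standard errors were small. VhaSFD (H), the regulatory subunit, had the single negative slope, -0.013 ± 0.016, with a lowest value of 64.4 FPKM at CT54 and a median of 70.5 FPKM. Vha36-2, at 0.801 to 1.90 FPKM, had a slope of 0.076 ± 0.055 (adjusted p = 0.226).

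**Figure D3:**
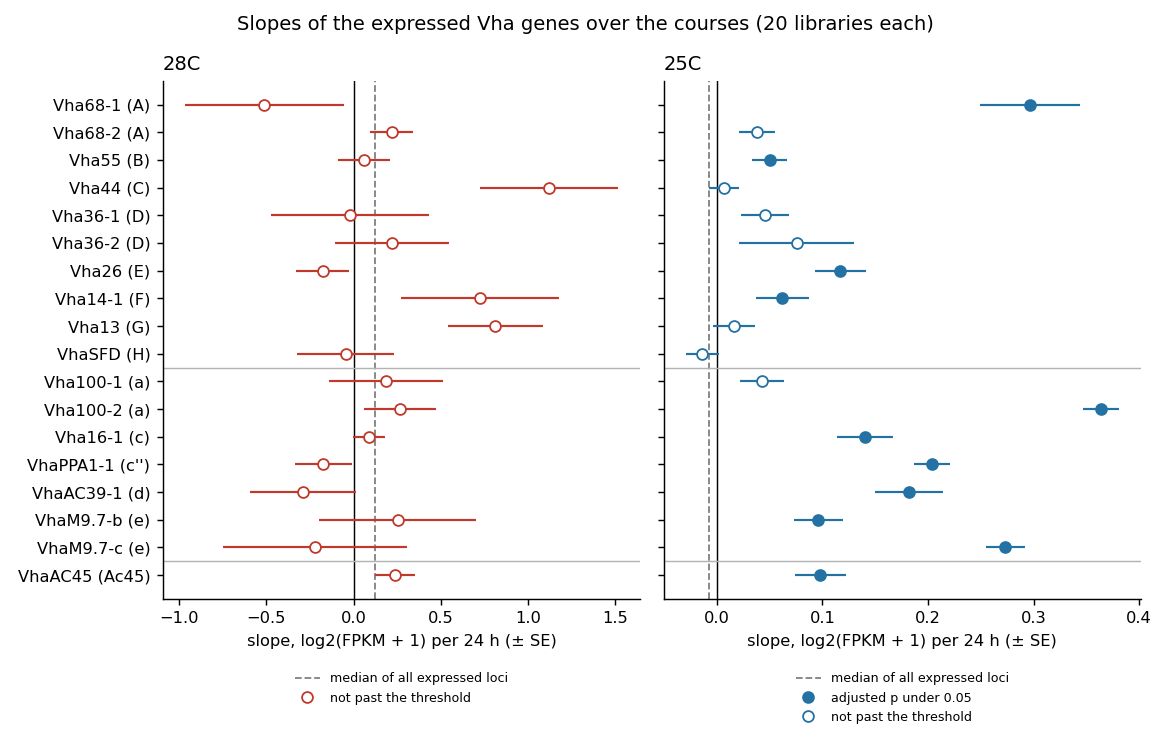
Slopes of the 18 expressed Vha genes in log2(FPKM + 1) per 24 h, with the standard error as a bar, at 28°C (left) and 25°C (right) on different scales. Filled points passed an adjusted p of 0.05 (0 at 28°C and 11 at 25°C), and the dashed line is the median of all expressed loci (0.12 at 28°C and -0.0070 at 25°C).

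The steps between windows show when the 25°C levels changed. From the first to the second window 11 of 18 members rose, among them all 7 V0 genes, and 0 fell, against 18.7% of all loci rising and 23.6% falling. From the second to the third window, Vha68-1, VhaM9.7-c and Vha100-2 rose (14.2% of all loci) and VhaSFD fell, by 0.081 log2 units (12.3% of all loci). From the third to the last window 6 members rose and 0 fell, against 21.5% of all loci rising and 26.2% falling. These were Vha26 and Vha55 of V1 and VhaM9.7-b, VhaM9.7-c, VhaPPA1-1 and Vha100-2 of V0. In any step, 13 of 18 members changed, a share close to the 71.1% of all loci. The 10 highest loci held 12.7% to 13.4% of the summed FPKM in the last window, against 11.2% to 12.1% in the first. With libraries rescaled by median of ratios, the count of rising members was again 11. The summed level of the 7 plasmatocyte markers was 246 to 259 FPKM in the last window, against 216 to 242 FPKM in the first, with crq rising and srp and Pxn falling. That of the 6 markers of other cell types was 7.43 to 8.14 FPKM in the last window, against 5.99 to 6.53 FPKM in the first, without overlap. Nearly all of it was elav, which rose (slope 0.16 ± 0.035, adjusted p = 0.000441). The part of these markers in the rise of the members was not tested.

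As a description, the summed FPKM of the V0 genes averaged 1624 in the last window of the 25°C course, against 1302 in the first, and that of the V1 genes 1229, against 1141. The quotient of V1 over V0 sums was 0.757 in the last window and 0.878 in the first. At 28°C the V0 sum averaged 561 in the last window, against 566 in the first, and the V1 sum 551, against 409. All members together averaged 1202 FPKM in the last window there, against 1038 in the first. Their share of the summed FPKM of a library was nevertheless lower, with 0.139% against 0.169%. The quotient there went the other way, with 0.987 in the last window and 0.725 in the first, and 0.581 to 1.27 in single libraries. In these sums 1 gene can dominate, since Vha16-1 makes up about as much as all other V0 genes together. Bulk values cannot separate more cells of a kind from more RNA per cell.

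**Figure D4:**
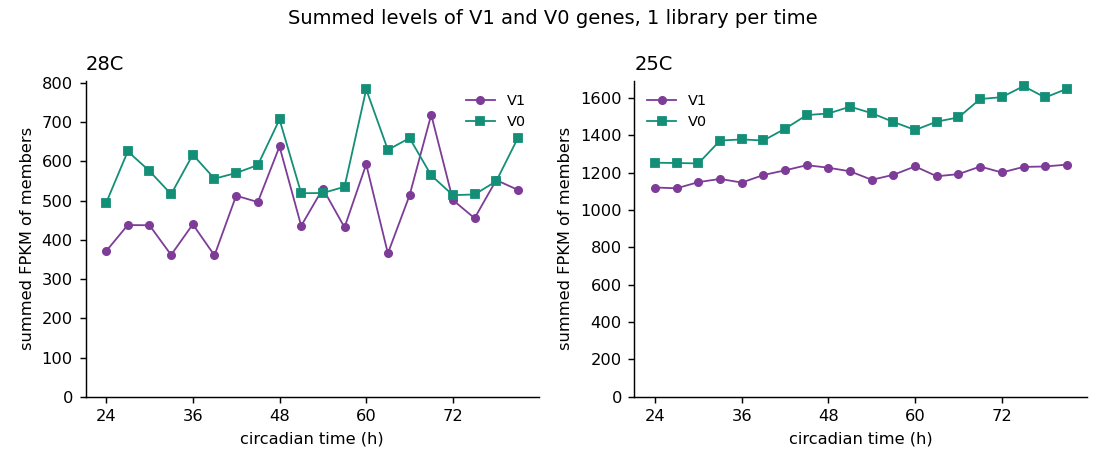
Summed FPKM of V1 genes (circles) and V0 genes (squares) in each library against circadian time in h, at 28°C (left) and 25°C (right). At 25°C the V0 sum averages 1624 in the last window against 1302 in the first while the V1 sum averages 1229 against 1141; at 28°C single libraries vary more than the windows.

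The 4 subunits with a pair of expressed copies allowed a comparison of paralogs within the same libraries. The log2 ratio of the copies, on FPKM + 1, was fitted against time and its slope tested by permuting the times (100000 resamples, two-sided, adjusted over 8 relations, namely 4 pairs in each course). This comparison was chosen after the profiles had been seen. At 25°C, Vha100-2 gained on Vha100-1 by 0.32 ± 0.022 log2 units per 24 h (SE, n = 20), with a permutation p of 1e-05, the smallest these resamples can give, and an adjusted value of 8e-05. Vha100-2 made up 50.4% of the summed level of the subunit a genes in the last window, against 40.5% in the first. It exceeded Vha100-1 in 4 libraries, at CT66, CT72, CT78 and CT81, and in none before CT66.

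VhaM9.7-c gained on VhaM9.7-b by 0.18 ± 0.026 per 24 h at 25°C (permutation p = 3e-05, adjusted 0.00012), and Vha68-1 on Vha68-2 by 0.26 ± 0.055 (permutation p = 0.00021, adjusted 0.00056). The share of Vha68-1 among the A subunit genes stayed small, with 5.52% in the last window, against 3.92% in the first. For the D pair, Vha36-2 against Vha36-1, the slope was 0.030 ± 0.049 (permutation p = 0.546, adjusted 0.728). VhaM9.7-c and Vha68-1 are the less abundant copies, and at 25°C the order of the copies did not change in these 3 pairs. In single libraries at 28°C it did, with VhaM9.7-c at 82.2% of the subunit e genes at CT27. Vha36-2 likewise held 61.2% of the subunit D genes at CT30, while Vha68-1 held at most 46.5% of the A genes. At 28°C none of the 4 ratios had a slope that passed (permutation p between 0.145 and 0.860), and their standard errors lay between 0.38 and 0.56. Neighbouring times may not be independent, which permutation of the times does not take into account.

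**Figure D5:**
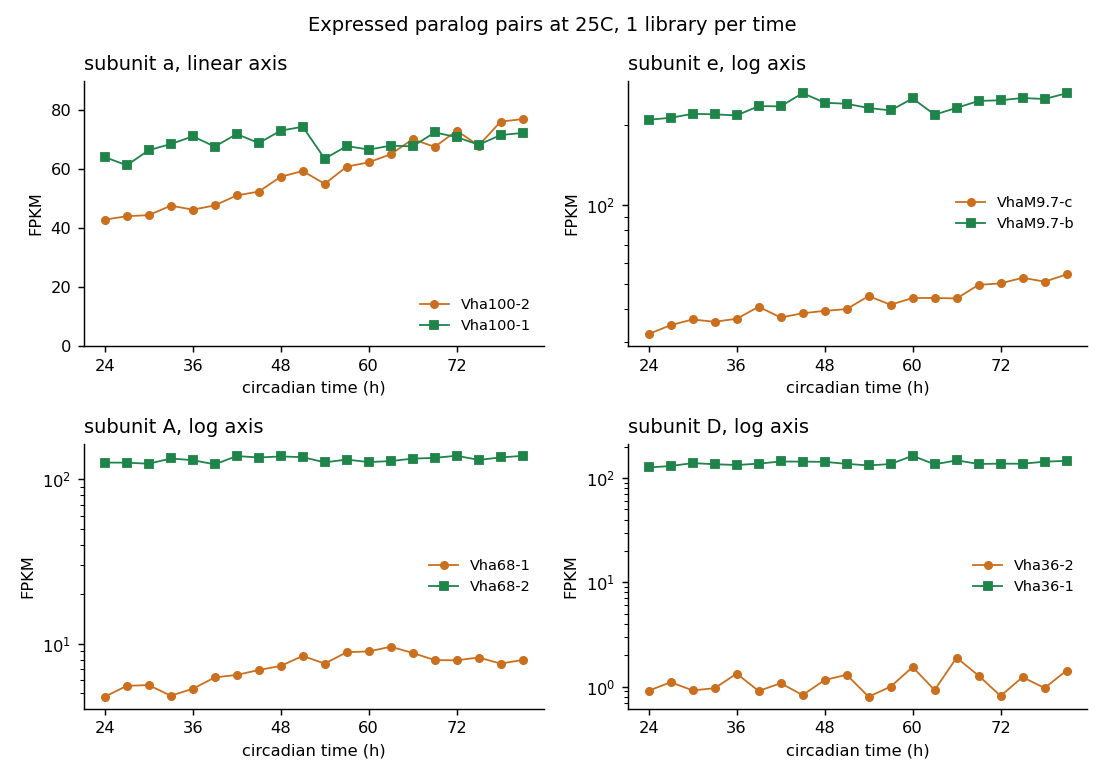
FPKM of the expressed paralog pairs at 25°C against circadian time in h, 1 library per point, on a linear axis for subunit a and log axes for subunits e, A and D. Vha100-2 lies above Vha100-1 at CT66, CT72, CT78 and CT81 alone, whereas VhaM9.7-c, Vha68-1 and Vha36-2 stay below their partners in all 20 libraries.

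Whether the slopes differed between the courses was tested directly, after the values had been seen. None of the 18 members passed (28°C minus 25°C, adjusted over 6954 loci expressed in both courses), against 0.777% of these loci, and 3 had an unadjusted p under 0.05. The slope of Vha13 was higher at 28°C by 0.80 (95% interval 0.23 to 1.36, adjusted p = 0.188) and that of Vha44 by 1.11 (0.30 to 1.93, adjusted p = 0.207). With 1 library left out, the 28°C slopes behind these differences ranged from 0.40 to 0.95 for Vha13 and from 0.76 to 1.43 for Vha44. Both slopes were lowest without CT24, and the differences were not tested again without any library. For VhaPPA1-1 the difference was -0.38 (-0.71 to -0.039, adjusted p = 0.312), and its 28°C slope was -0.17, or -0.049 without CT27. For Vha100-2, the steepest member at 25°C, it was -0.098 (-0.52 to 0.33, adjusted p = 0.883), an interval that includes no difference as well as no slope at 28°C; its slope there was 0.27, or -0.035 without CT24. The rise at 25°C was therefore not shown to be particular to that course.

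The study asked which transcripts cycle with a period near 24 h, and the members were put to the same question with a re-implementation of its test. With JTK-Cycle on linearly detrended FPKM (periods of 21, 24 and 27 h), 0 of 18 members had an adjusted P under 0.05 at 28°C and 0 of 18 at 25°C, against 2.3% of all loci at 28°C and 5.8% at 25°C. This adjustment covers the 24 reference curves and not the number of loci. Before it, 6 members at 28°C and 5 at 25°C had a P under 0.05, against 30.2% of all loci at 28°C and 47.8% at 25°C, the best of 24 references being taken each time. Cosinor regression at an unadjusted P under 0.05 gave 1 member in each course, VhaPPA1-1 at 28°C and Vha44 at 25°C, against 5.47% of all loci at 28°C and 10.4% at 25°C.

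The members nearest to a call were a proteolipid gene at 28°C and a peripheral stalk gene at 25°C. At 28°C, Vha16-1 had an adjusted P of 0.114 with a best period of 24 h, and it passed without CT48 or without CT78. VhaPPA1-1 had an adjusted P of 0.217, a best period of 24 h and a fitted amplitude of 31.7% of its mean, and passed without detrending, with quadratic detrending or on a log2 scale. At 25°C, Vha26 had an adjusted P of 0.0908 with a best period of 27 h and an amplitude of 3.83% of its mean, and passed with quadratic detrending, without CT24 or without CT33. The median amplitude of a fitted 24-h cosine was 21.7% of the mean for the members at 28°C, against 32.7% for all loci, and 2.16% at 25°C, against 3.45% for all loci. Vha100-2, the gene with the steepest trend at 25°C, had the lowest amplitude of the members there.

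Between the courses, most members were listed at lower FPKM at 28°C, as most loci were. With limma on log2(FPKM + 1), 17 of 18 members were lower at 28°C than at 25°C and 0 were higher, against 84.9% of all 7933 loci lower and 3.39% higher. Vha36-2 did not pass (adjusted p = 0.0502). The median difference was -1.36 log2 units for the members and -1.52 for all loci. All 28°C values lay below all 25°C values for 9 members, against 23.8% of all loci. The summed FPKM of a library had a median of 751455 at 28°C and 1036220 at 25°C, and the tables were normalised separately. Temperature, RNA selection, depth, entrainment, the separate cultures and a medium supplement (MycoZap, named for 25°C alone) differed together and cannot be told apart.

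Relative to all loci, single members differed in their place. VhaM9.7-b had a difference of -3.15 ± 0.34 log2 units, 28°C minus 25°C (mean log2 values of 4.74 at 28°C and 7.89 at 25°C, adjusted p = 5.91e-11), and 6.25% of loci had a lower difference. For Vha36-1 the difference was -2.40 ± 0.34, and for Vha44 -2.10 ± 0.34. VhaM9.7-b and Vha36-1 were listed at 0 in 1 library each at 28°C and Vha44 in 2, which lowers a mean of log2 values. As log2 ratios of mean FPKM, the differences were -2.63 for VhaM9.7-b, -1.97 for Vha36-1 and -1.69 for Vha44. The median of these ratios was -1.20 for the members and -1.22 for all loci. At the other end of the limma differences, Vha100-2 had -0.43 ± 0.16 and Vha100-1 had -0.59 ± 0.25. Vha36-2, which lay just above the threshold of expression, came between them with -0.48 ± 0.23. Both copies of subunit a thus stood above 83.3% or more of all loci. With all libraries rescaled by median of ratios, 10 members passed, 8 lower and 2 higher at 28°C, against 59.4% of all loci, with a median of -0.23 for the members and -0.62 for all loci. The rescaled difference was -2.07 for VhaM9.7-b, -1.33 for Vha36-1 and -1.06 for Vha44. The 2 higher ones were Vha100-2 (0.67, adjusted p = 0.000740) and VhaAC45 (0.29, adjusted p = 0.00288), whose direction therefore depended on the scaling.

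Genes that act on the pump did not move as 1 group. All 4 listed genes of assembly and regulation were expressed in both courses. None passed the trend test at 28°C. At 25°C, ATP6AP2, which encodes an accessory subunit of the membrane sector (the prorenin receptor in mammals), rose with a slope of 0.18 ± 0.024 (adjusted p = 8.53e-07) and ranged from 166 to 244 FPKM. Mitf, the fly counterpart of the mammalian TFEB family of lysosomal transcription factors, fell with a slope of -0.14 ± 0.023 (adjusted p = 1.55e-05), and ranged from 13.3 to 18.4 FPKM. Rbcn-3A, an assembly factor of the pump, also fell (-0.12 ± 0.029, adjusted p = 0.000652), and its partner Rbcn-3B had a slope of 0.0087 ± 0.032 (adjusted p = 0.826).

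Of 33 listed lysosomal genes, 32 matched a locus (Trpml did not), and 29 were expressed at 28°C and 27 at 25°C. At 28°C 1 of 29 rose and 0 fell, against 1.28% and 0.122% of all loci. This was Hexo2, a hexosaminidase gene, with a slope of 0.56 ± 0.14 (adjusted p = 0.0374), and the median slope was 0.26, against 0.12 for all loci. At 25°C 15 of 27 rose, 4 fell and 8 did not pass, against 32.4% of all loci rising and 35.5% falling, with a median slope of 0.056, against -0.0070 for all loci. The largest rise was that of Cln7 (0.62 ± 0.047, adjusted p = 1.49e-10), followed by GILT1 (0.29), a thiol reductase gene, and car (0.28), a gene of vesicle fusion at the lysosome. Npc2a, a sterol carrier gene, fell most (-0.41 ± 0.053, adjusted p = 6.95e-07), followed by the locus shared by the protease gene CtsL1 and CG42806 (-0.36). Lamp1, a lysosomal membrane protein gene, had a slope of 0.031 ± 0.017 (adjusted p = 0.103).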

How the data were processed

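RNA-Seq was performed on 20 libraries at 28°C and 20 at 25°C, with 1 library per time. Per the methods and labels, the authors aligned single-end reads to dm3 with TopHat2, quantified RefSeq-guided loci with Cufflinks tools and deposited FPKM; 28°C alignments were subsampled (SAMtools is named there). Read counts were not used here, so that no counting error can be given. Accessions were mapped to symbols (98.2% of loci), and courses were joined by accession and position (15825 loci). Values were tested as log2(FPKM + 1) over loci with a mean of at least 0.9 FPKM by limma 3.58.1 (R 4.3.3; trend and robust). A pseudocount understates changes of low genes. JTK-Cycle was re-implemented (Python 3.11.15, scipy 1.17.1), and the scripts were tested on simulated data. P-values measure scatter over times, and those of limma treat neighbouring times as independent. The methods name a stranded kit for 25°C, the labels another protocol; whether strand was used in counting is not given in the sources used here, and similar copies may share reads.

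Every Vha locus was accounted for and every expressed one described; listed genes outside the family were named if they passed with the largest changes. Members and lists were chosen with earlier results of these data known. Alternatives were other filters, pseudocounts, scalings, detrending and tests, and leaving out each library. Planned protein and promoter sequences were not used here.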

Additional observations from a re-analysis of the deposited data

How the results depend on the processing

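The count of members rising at 25°C (11 of 18) was 10 to 12 when each library was left out in turn and 12 with Kendall's tau, and that of members changing between consecutive windows of 5 libraries (13) was 10 to 13. At 28°C both counts were 0 under every alternative run. With at least 0.9 FPKM in every library, 11 rather than 18 members counted as expressed at 28°C, and 17 to 18 did with each library left out. Rhythm counts at 28°C went from 0 to 1 without detrending, with quadratic detrending, on the log2(FPKM + 1) scale and by cosinor regression, and ranged from 0 to 1 with each library left out. At 25°C they went from 0 to 1 with quadratic detrending and by cosinor regression, and again ranged from 0 to 1 with each library left out. For these changes the cause was not tested. Between courses, rescaling moved the count from 17 to 10, and circadian time as a replicate block, which pairs libraries by clock time only, gave 17. The slope of Vha44 at 25°C, which did not pass, ranged from -0.00054 to 0.012 with each library left out. With 1 library per time, a change within a single time cannot be told from the scatter of that library.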

Other observations

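Profiles of the members resembled each other at 25°C, as a description over 20 libraries that share depth, scaling and the overall trend. Pearson's r over the 153 pairs of expressed members had a median of 0.46 as deposited and of 0.14 once a straight line was removed from each profile, against medians of 0.0014 and 0.0039 for pairs of all expressed loci. At 28°C the medians were 0.043 and 0.024 for the members and 0.052 and 0.049 for all loci. All 33 members together, silent ones included, held 0.139% of the summed FPKM in the last window at 28°C, against 0.169% in the first. At 25°C they held 0.278% in the last window, against 0.259% in the first.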
